A study of Rattus norvegicus with 8 samples.

Results

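Fatty acid synthesis and desaturation in the rat ovary was followed through 10 genes: Srebf1, Acly, Acaca, Fasn, Scd, Scd1, Elovl5, Elovl6, Fads1 and Fads2. They are 10 of 26204 gene names on the array, chosen by function but with earlier results of these data known. Every non-control probe whose gene name on the array equals one of them was taken, which gave 12 of the 30367 probes on the array. Elovl6 and Scd each had a pair of probes, and the other genes had 1 each. Each of the 12 probes had a signal well above background on every one of the 8 arrays and was tested.

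The study asked how pregnant mare serum gonadotropin (PMSG), a hormone preparation with follicle-stimulating activity, changes transcripts of the immature ovary. Female rats received 50 IU PMSG in 0.2 ml albumin phosphate buffer under the skin at 26 days of age, or the buffer alone. Whole ovaries were collected after 48 h, at 28 days of age, and 500 ng of their total RNA was labelled with Cy3 from an oligo-dT primer and hybridised to 1-colour Agilent arrays, 4 per group. The strain was not given in the sources used here. The labels do not say whether the arrays of a group hold separate animals, so p-values measure the spread between these samples. In whole-ovary RNA, fewer cells of a type and less RNA per cell cannot be told apart.

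The pathway builds fatty acids from citrate. Citrate leaves the mitochondrion and is cleaved to acetyl-CoA, which is carboxylated to malonyl-CoA and assembled into palmitate by fatty acid synthase, with NADPH as the reductant. Elongases then lengthen the chain in the endoplasmic reticulum, and desaturases insert double bonds. The transcription factor SREBP-1 is known to drive many of these genes, while its relative SREBP-2 chiefly serves cholesterol synthesis. In the ovary the products enter membranes, cholesteryl esters and the stored lipid of steroid-making cells, and arachidonic acid, a product of the front-end desaturases, is the precursor of prostaglandins.

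Values are the log2 of the processed spot signal minus the array's 75th percentile of that quantity, so a value of 0 is the 75th percentile of all probes on the array. Differences are log2 values of arrays labelled PMSG minus arrays labelled control. They were tested with limma over all 25303 tested probes, with Benjamini-Hochberg adjustment and a threshold of 0.05. The 75th percentile of the signal lay between 769 and 1103 on the 8 arrays, and 80.8% to 84.5% of probes were well above background. The median difference of all tested probes was 0.11, against which small differences are to be read. It was 0.03 under quantile normalization and -0.05 under median centring, which moved the share of higher probes among all called probes from 51.4% to 34.5%. Arrays are named by their sample titles throughout, since Lhcgr (-1.93), Star (-2.75) and Cyp11a1 (-3.36), genes that gonadotropin is known to induce, were lower in arrays labelled PMSG, and Amh, a product of small growing follicles, was higher (3.03). Whether the labels were exchanged was not tested, and if they were, every rise and fall given here would turn.

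The 5 genes that fell in arrays labelled PMSG were Fads1, Scd, Fads2, Elovl6 and Acly. None of the 10 rose, and Srebf1, Acaca, Fasn, Scd1 and Elovl5 did not pass the threshold. Counted in the same way, with the brightest probe of each gene, 16.5% of all 21926 tested genes were lower past the threshold and 18% were higher, so 34.5% were called in all. Over single probes the shares were 34.2% called, 16.6% lower and 17.6% higher, and 5 of the 12 probes were lower. The median difference of the 10 genes was -0.41, against 0.12 over all tested genes. The values of the labels did not overlap for 5 of the 10 genes, where this held for 37% of all tested genes (36.6% of probes). The mean level of the 10 genes was 1.30 to 1.61 on the arrays labelled control and 0.58 to 1.28 on those labelled PMSG, with PMSG array 4 the lowest.

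**Figure D1:**
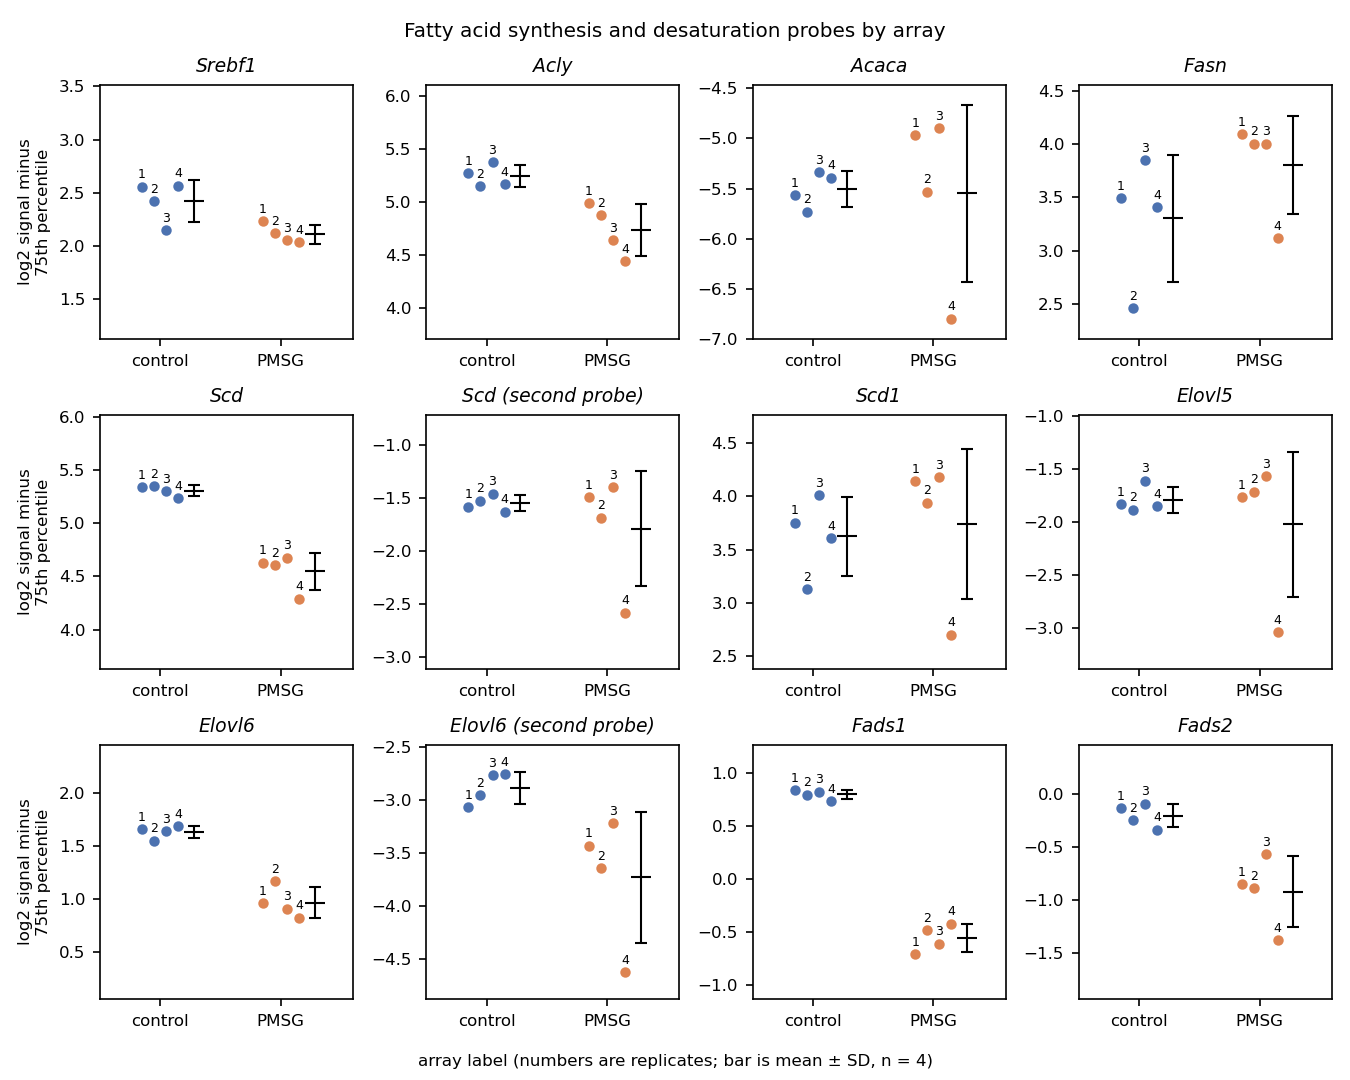
Each panel plots 1 probe of the 10 genes, with the log2 signal minus the array's 75th percentile on the vertical axis and the arrays by label on the horizontal axis. Points are arrays with their replicate number, and the bar is the mean ± SD (n = 4). Fads1, Scd, Elovl6, Fads2 and Acly separate the labels without overlap, whereas Fasn, Scd1 and Elovl5 have PMSG array 4 far below the other 3 PMSG arrays.

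Both desaturase loci lie on chromosome 1, and at each of them a pair of genes sits on opposite strands. The RefSeq promoter windows of these 4 genes, in the GRCr8 assembly, are printed because both front-end desaturases and 1 of the stearoyl-CoA desaturases fell. Each window runs from 250 bases before to 50 bases after the gene's start, 5′ to 3′ on the gene's own strand. Capitals mark the NF-Y box CCAAT and the GC box GGGCGG, read on both strands. The gene that the array calls Scd is named Scd2 in RefSeq by its accession, and the array's Scd1 is RefSeq's Scd.
Fads1, chr1:216252442-216252741, plus strand: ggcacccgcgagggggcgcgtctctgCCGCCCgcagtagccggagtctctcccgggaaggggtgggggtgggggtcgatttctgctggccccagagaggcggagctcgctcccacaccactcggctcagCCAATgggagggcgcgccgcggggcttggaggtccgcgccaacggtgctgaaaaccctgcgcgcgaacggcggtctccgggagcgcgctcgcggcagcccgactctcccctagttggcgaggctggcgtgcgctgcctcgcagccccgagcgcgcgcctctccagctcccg
Fads2, chr1:216171984-216172283, minus strand: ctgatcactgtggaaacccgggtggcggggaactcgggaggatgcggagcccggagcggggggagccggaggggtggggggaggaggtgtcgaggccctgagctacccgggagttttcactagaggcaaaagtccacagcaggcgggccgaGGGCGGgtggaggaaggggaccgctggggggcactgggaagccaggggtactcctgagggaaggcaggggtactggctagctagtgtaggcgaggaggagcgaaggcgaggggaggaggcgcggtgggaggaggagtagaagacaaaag
Scd2 (Scd on the array), chr1:253118127-253118426, plus strand: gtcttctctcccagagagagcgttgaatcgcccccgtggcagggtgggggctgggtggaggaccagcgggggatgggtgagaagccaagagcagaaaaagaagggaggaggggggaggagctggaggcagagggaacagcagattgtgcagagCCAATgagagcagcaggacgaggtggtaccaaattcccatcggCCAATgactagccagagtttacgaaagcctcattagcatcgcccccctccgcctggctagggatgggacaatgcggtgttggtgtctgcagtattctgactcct
Scd (Scd1 on the array), chr1:253231682-253231981, minus strand: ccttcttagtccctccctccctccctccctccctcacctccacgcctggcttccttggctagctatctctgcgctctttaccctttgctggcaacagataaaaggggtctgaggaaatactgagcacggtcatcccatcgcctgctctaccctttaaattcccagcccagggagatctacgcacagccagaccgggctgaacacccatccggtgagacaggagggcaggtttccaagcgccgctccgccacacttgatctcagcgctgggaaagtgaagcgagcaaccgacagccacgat

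Fads1 had 1 NF-Y box and 1 GC box in its window, and Fads2 had 1 GC box and no NF-Y box. Scd2 had 2 NF-Y boxes, and its counterpart Scd had none of the motifs searched. The NF-Y box is common, in 37.5% of the 33469 windows of that table, and the GC box was in 33.1%. RefSeq windows were matched for 7 of the 10 genes, 8 windows in all since Srebf1 had 2. The sterol regulatory element, the site of the SREBP factors, was searched by its consensus and in the looser form TCACNCCAC, which contains the former. Neither was found in these 8 windows, while 0.125% and 1.12% of all windows held them. The E-box CACGTG was in 6.42% of all windows, and of the 8 only the window of Elovl5 held it. A match is a description of the letters and is no measured site.

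Srebf1, the gene of SREBP-1, read 2.56, 2.42, 2.15 and 2.57 on control arrays 1 to 4. The PMSG arrays gave 2.23, 2.12, 2.05 and 2.03. The 3 higher control arrays lay above all 4 PMSG arrays, and control array 3 lay within them. The difference was -0.32 (SE 0.12, 95% confidence interval -0.59 to -0.04, limma adjusted p = 0.0739), which did not pass the threshold. It passed under 4 of 20 alternative settings, among them without control array 3 (-0.41, limma adjusted p = 0.0266). The probe lies on chromosome 10 from 46462235 to 46462294 on the minus strand of rn4, the build in the file headers, and positions relative to exons were not analysed here for any probe.

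Acly, encoding ATP citrate lyase, which splits cytosolic citrate into acetyl-CoA, fell 1.42-fold (95% confidence interval 1.14 to 1.76). Control arrays 1 to 4 read 5.27, 5.15, 5.37 and 5.17, and PMSG arrays 1 to 4 read 4.99, 4.88, 4.64 and 4.44. All PMSG arrays were below all control arrays, by a narrow gap on PMSG array 1. The means were 5.24 ± 0.10 and 4.74 ± 0.24 (SD, n = 4), a difference of -0.51 (SE 0.14, limma adjusted p = 0.0224). The probe lies on the minus strand of chromosome 10, from 89420943 to 89421002. The call was lost without PMSG array 3 (limma adjusted p = 0.0519), without control array 1 (0.0576) and without control array 3 (0.0605).

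Acaca encodes acetyl-CoA carboxylase alpha, which makes malonyl-CoA and is the committed step of the pathway. Its probe was dim, with an unscaled signal between 9.74 and 31.5. Control arrays read -5.57, -5.73, -5.33 and -5.39, and PMSG arrays -4.97, -5.53, -4.90 and -6.80. PMSG arrays 1 and 3 were above every control array and PMSG array 4 below every one, so the label mean hides a wide spread. The difference was -0.04 (SE 0.39, 95% confidence interval -0.94 to 0.86, limma adjusted p = 0.939). The probe lies on the plus strand of chromosome 10, from 72499952 to 72500011. Its sign turned under 5 of 20 settings, with values from -0.34 to 0.37, the latter without PMSG array 4.

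Fasn encodes fatty acid synthase, the multi-enzyme protein that builds palmitate. Control arrays 1 to 4 gave 3.49, 2.46, 3.85 and 3.41, and PMSG arrays 4.10, 4.01, 4.01 and 3.12. Control array 2 and PMSG array 4 each stood below the other arrays of their label, and the labels overlapped. The difference was 0.50 (SE 0.33, 95% confidence interval -0.26 to 1.26, limma adjusted p = 0.263), an interval that holds both a small fall and a more than 2-fold rise. It was 0.22 without control array 2 (limma adjusted p = 0.550) and 0.73 without PMSG array 4 (limma adjusted p = 0.0841). The array has another probe described as the fatty acid synthase gene but named otherwise, which gave -4.34 ± 0.21 and -4.00 ± 0.42 (SD, n = 4), a difference of 0.34 (SE 0.22, limma adjusted p = 0.247).

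The array's Scd and Scd1 are stearoyl-CoA desaturases, which put the first double bond into saturated acids and so make oleate and palmitoleate. Scd, read from 10 spots, fell 1.69-fold (95% confidence interval 1.42 to 2.01). Its values were 5.34, 5.35, 5.30 and 5.24 on control arrays 1 to 4 and 4.63, 4.60, 4.68 and 4.29 on PMSG arrays 1 to 4. The control arrays lay within a narrow band, and every PMSG array was below it. The difference was -0.76 (SE 0.11, limma adjusted p = 0.00133), from a probe on the plus strand of chromosome 1, at 249370837 to 249370896. Scd1 had no such separation. Control arrays read 3.75, 3.13, 4.01 and 3.61 and PMSG arrays 4.14, 3.94, 4.18 and 2.70, so PMSG array 4 was the lowest of all 8 and PMSG arrays 1 and 3 the highest. Its difference was 0.12 (SE 0.35, 95% confidence interval -0.69 to 0.92, limma adjusted p = 0.813), from a probe on the minus strand of chromosome 1, at 249458860 to 249458919. Without PMSG array 4 the difference of Scd1 was 0.46 (limma adjusted p = 0.102), and it was between -0.05 and -0.02 under median centring or without PMSG array 1, PMSG array 3 or control array 2.

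Of the elongases, Elovl6 separated the labels and Elovl5 did not. Elovl6, which lengthens palmitate and palmitoleate, fell 1.59-fold (95% confidence interval 1.35 to 1.87). It read 1.66, 1.55, 1.64 and 1.69 on control arrays 1 to 4 and 0.96, 1.17, 0.91 and 0.82 on PMSG arrays 1 to 4, with no overlap. The means were 1.63 ± 0.06 and 0.97 ± 0.15 (SD, n = 4), a difference of -0.67 (SE 0.10, limma adjusted p = 0.00174). The probe lies on the plus strand of chromosome 2, from 227054046 to 227054105. Elovl5, which lengthens polyunsaturated acids, gave -1.83, -1.89, -1.61 and -1.85 on control arrays and -1.77, -1.72, -1.57 and -3.04 on PMSG arrays. Apart from PMSG array 4, its arrays of both labels lay between -1.89 and -1.57. Its difference was -0.23 (SE 0.31, 95% confidence interval -0.93 to 0.48, limma adjusted p = 0.580), with its probe at 82947178 to 82947237 on the plus strand of chromosome 8, and without PMSG array 4 it was 0.11 (limma adjusted p = 0.419).

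The front-end desaturases, which make arachidonic and related acids from the essential fatty acids, both fell. Fads1, whose enzyme acts last before arachidonic acid, had the largest difference of the 10 genes. It read 0.84, 0.79, 0.82 and 0.73 on control arrays 1 to 4 and -0.71, -0.48, -0.61 and -0.42 on PMSG arrays 1 to 4. Every array of one label was more than 1 log2 unit from every array of the other. The means were 0.80 ± 0.05 and -0.56 ± 0.13 (SD, n = 4), a 2.55-fold fall (95% confidence interval 2.19 to 2.98) and a difference of -1.35 (SE 0.10, limma adjusted p = 8.07e-05). Its probe lies on the plus strand of chromosome 1, from 212684643 to 212684702. A fall past the threshold of at least 2-fold was found for 4.67% of all tested genes. Fads2, whose enzyme takes the rate-limiting step before elongation, fell 1.64-fold (95% confidence interval 1.26 to 2.15). Its control arrays read -0.14, -0.25, -0.09 and -0.34, and its PMSG arrays -0.85, -0.89, -0.57 and -1.38. The labels did not overlap, with PMSG array 3 nearest to the control arrays. The difference was -0.72 (SE 0.17, limma adjusted p = 0.0127), with the probe on the minus strand at 212514714 to 212514773. The calls of Fads1, Fads2 and Elovl6 held under all 20 settings tried.

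**Figure D2:**
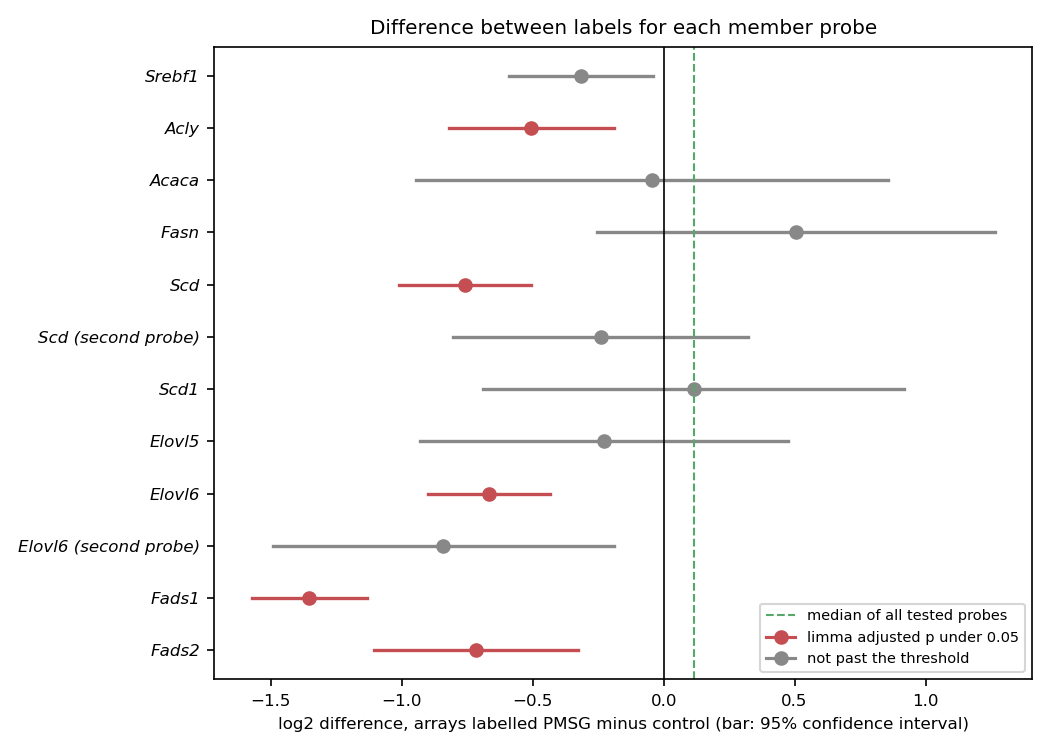
The log2 difference between the labels is plotted for each of the 12 probes, with its 95% confidence interval as the bar and the median of all tested probes, 0.11, as the dashed line. Red marks the 5 probes with a limma adjusted p under 0.05, and the interval of Fads1 lies lowest, while those of Acaca, Fasn, Scd1 and Elovl5 are wide and span 0.

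Within the families, the changes were set against each other for 4 pairs that were picked after their values had been seen. The change of Acly was 1.01 lower than that of Fasn, that of Scd 0.87 lower than that of Scd1, that of Fads1 0.64 lower than that of Fads2, and that of Elovl6 0.44 lower than that of Elovl5. An exact two-sided permutation test over the arrays gave p = 0.0286 for the first, which is the smallest it can give with 4 arrays against 4, and 0.0857, 0.0571 and 0.200 for the others. After Benjamini-Hochberg adjustment over the 4 pairs the lowest value was 0.114. A pair that alone reaches the smallest p of 0.0286 is adjusted to 0.114, so it could not have passed the threshold. No pair was shown to differ in its change, and for Acly against Fasn, already at that smallest p, the adjusted test cannot decide.

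The second probes that the array names Elovl6 and Scd, of 60 bases each, are printed because they did not repeat the values of the brighter probes in full. The array describes that of Scd as acyl-CoA desaturase 2.
Elovl6, second probe: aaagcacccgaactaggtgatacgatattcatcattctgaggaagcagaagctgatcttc
Scd, second probe: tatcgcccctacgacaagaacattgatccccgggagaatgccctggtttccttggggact
The Elovl6 sequence matches rn4 on chromosome 2 in separate pieces between 227047594 and 227052367, and the Scd sequence has no rn4 position in the files. Scd, Scd1 and Scd4 are similar genes, so which of them the second Scd probe reads is uncertain.

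On its second probe Elovl6 read -3.06, -2.95, -2.77 and -2.76 on control arrays 1 to 4 and -3.43, -3.64, -3.22 and -4.62 on PMSG arrays 1 to 4. The labels did not overlap here either, but PMSG array 4 was about 1 log2 unit below the other PMSG arrays. The difference was -0.84 (SE 0.28, limma adjusted p = 0.0507), just outside the threshold, and -0.54 (limma adjusted p = 0.0170) without PMSG array 4. The second Scd probe gave -1.58, -1.53, -1.46 and -1.63 on control arrays and -1.49, -1.69, -1.40 and -2.58 on PMSG arrays. Here 3 of the 4 PMSG arrays lay among or beside the control arrays. Its difference was -0.24 (SE 0.25, limma adjusted p = 0.463), and 0.02 without PMSG array 4 (limma adjusted p = 0.870), so the fall of the brighter Scd probe was not seen with it. With the mean of both probes the difference of Scd was -0.50 (limma adjusted p = 0.0543).

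PMSG array 4 was also the lowest of all arrays in a measure of 5′ against 3′ probe signal, taken as a sign of RNA quality. Over 1947 pairs of probes of 1 gene that lie 500 to 200000 bases apart in rn4, the 5′ probe minus the 3′ probe was set relative to the control mean. Its median was -0.03 to 0.02 on the control arrays and -0.15, -0.17, -0.01 and -0.32 on PMSG arrays 1 to 4, with 77.8% of pairs below 0 on PMSG array 4. PMSG arrays 1 and 2 also lay below every control array in this median. The control medians lie near 0 by construction, since each pair was centred on the control mean. A PMSG array also carries any label difference between the probes of a gene, so the measure cannot compare RNA quality between the labels. The part of the 5′ to 3′ shift of PMSG array 4 in its low values of Acaca, Elovl5 and the second probes was not tested. Without PMSG array 4 the falls of Fads1 (-1.40), Scd (-0.67), Elovl6 (-0.62), Fads2 (-0.57) and Acly (-0.41) all remained past the threshold, with limma adjusted p-values up to 0.0271.

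**Figure D3:**
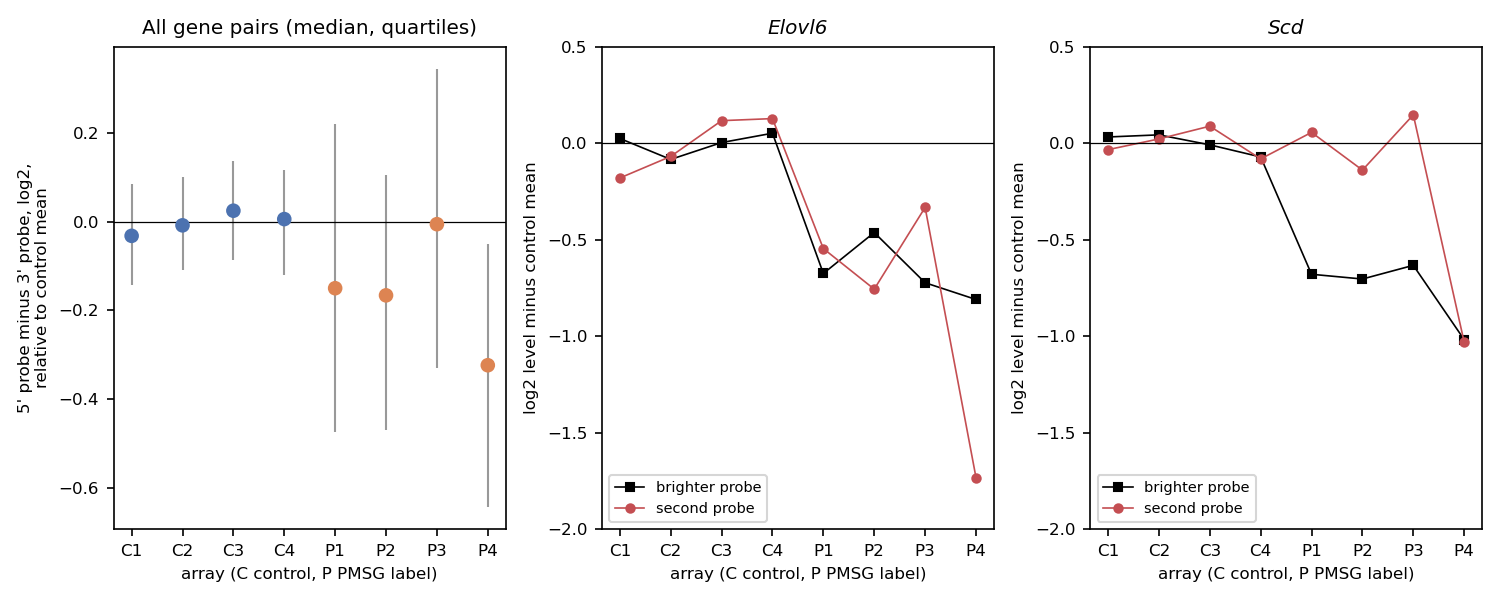
The left panel plots, for each array, the median and quartiles over 1947 gene pairs of the 5′ minus 3′ probe difference relative to the control mean, in log2 units, with PMSG array 4 the lowest at -0.32. The other panels plot the level of both probes of Elovl6 and of Scd on each array relative to the control mean: the Elovl6 probes are both below 0 on the 4 PMSG arrays, and the second Scd probe leaves the control range clearly only on PMSG array 4.

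Fasn and Scd1 are also abundant in adipose tissue, and a list of 13 adipocyte markers was therefore measured on the same arrays. Each of the 13 was above background on every array, their summed scaled signal running from 15.4 to 90.5 on control arrays and from 34.3 to 101.6 on PMSG arrays. Of the 13, Cidea and Ucp1 rose past the threshold, which is 15.4%, near the 18% of all tested genes that rose. Adipoq, the gene of adiponectin, differed by 0.75 (limma adjusted p = 0.252) and Plin1, encoding the lipid droplet protein perilipin, by 0.63 (limma adjusted p = 0.308). Adipoq passed without control array 3 (1.17, limma adjusted p = 0.0496), where Plin1 differed by 1.02, and without control array 2 the differences were 0.39 and 0.30. The mean marker level was -0.97, -2.20, 0.12 and -1.18 on control arrays 1 to 4 and -0.51, -0.24, 0.23 and -1.14 on PMSG arrays 1 to 4. The lowest array, control 2, was also the lowest of the control arrays for Fasn and Scd1, and PMSG array 4 was the lowest of the PMSG arrays for all of them.

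Across the 8 arrays, the level of Fasn had a Pearson's r of 0.916 with the mean marker level (exact permutation p = 0.00273, adjusted 0.0136) and a Spearman's rho of 0.762 (exact permutation p = 0.0368, adjusted 0.0613). Scd1 had r = 0.754 (exact permutation p = 0.0289, adjusted 0.0723) and rho = 0.857 (exact permutation p = 0.0107, adjusted 0.0268). Elovl5 had r = 0.413 (exact permutation p = 0.284, adjusted 0.284) and rho = 0.929 (exact permutation p = 0.00223, adjusted 0.0112), the highest rho of the 5. Acaca had r = 0.501 (exact permutation p = 0.203, adjusted 0.254) and rho = 0.714 (exact permutation p = 0.0576, adjusted 0.0720). Srebf1 had r = -0.59 (exact permutation p = 0.126, adjusted 0.210) and rho = -0.52 (exact permutation p = 0.197, adjusted 0.197). These 5 relations were computed for the genes whose labels overlapped and adjusted over the 5. Leaving out control array 2 and PMSG array 3, the farthest from the median marker level, r was 0.790 for Fasn and 0.666 for Scd1. Relations within a label, over 4 arrays each, were not computed. With the marker level as a covariate, chosen after seeing the data, the difference of Fasn was 0.12 (limma adjusted p = 0.682) and that of Scd1 -0.24 (limma adjusted p = 0.535). The falls of Fads1 (-1.34), Fads2 (-0.85), Scd (-0.80), Elovl6 (-0.70) and Acly (-0.58) held with it, with limma adjusted p-values up to 0.0256.

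**Figure D4:**
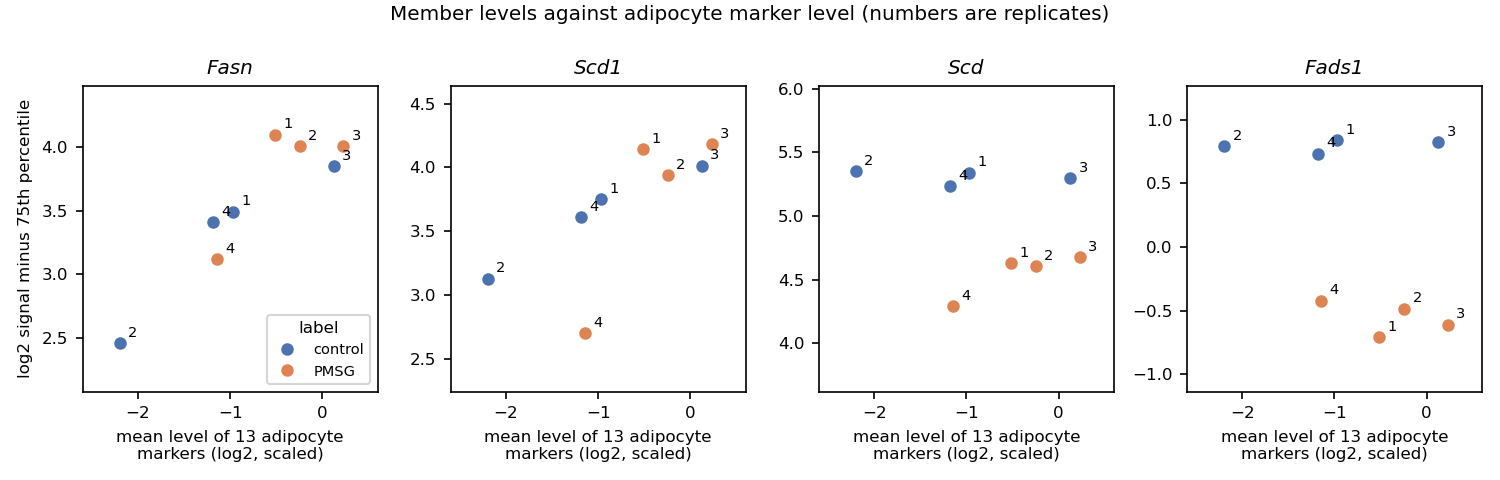
The level of Fasn, Scd1, Scd and Fads1 (vertical axes, log2 signal minus the 75th percentile) is plotted against the mean level of the 13 adipocyte markers on the same 8 arrays (horizontal axes). Fasn and Scd1 run upward with the marker level across both labels, with PMSG array 4 low for Scd1, whereas Scd and Fads1 form a separate level for each label.

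Markers of other cells differed between the labels as well. Past the threshold, 18% of all tested genes rose and 16.5% fell, against which the counts below are to be read. All 6 oocyte markers rose, their summed scaled signal running from 2.83 to 5.05 on control arrays and from 9.66 to 21.3 on PMSG arrays. The 5 oviduct epithelium markers measured rose (2.05 to 3.30 against 7.45 to 13.9), although Muc1 was above background on only 3 and Dnah5 on only 2 of the 4 control arrays, as did 4 of 5 macrophage markers (6.98 to 8.71 against 11.1 to 12.6). Of the luteinised cell markers, Lhcgr (-1.93, limma adjusted p = 0.00114) and Prlr (-2.15, limma adjusted p = 0.000435) fell. The other 2, Akr1c18 and Ptgfr, were well above background on 4 of 4 control arrays but on 1 and 0 PMSG arrays, so they entered the test only through the control arrays and are given without it. The 4 markers summed to 3.47 to 5.39 on control and 0.162 to 0.341 on PMSG arrays. Akr1c18 was the brightest of the 4 on control arrays (mean 1.58), so this sum is no support for a fall. Of 5 theca and interstitial markers 1 rose (20%) and 2 fell (40%), and of 7 granulosa markers measured 1 rose (14.3%) and 2 fell (28.6%). Of the granulosa markers 57.1% did not pass, against 65.5% of all tested genes. The part of these cell types in the falls of the 5 genes was not tested.

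The genes around the pathway were counted by role, from lists chosen with earlier results of these data known. Of all tested genes 16.5% fell, 18% rose and 65.5% did not pass. Of 6 genes measured that supply carbon and NADPH, 5 fell and none rose, and the list's median difference was -1.29. Idh1, the cytosolic NADP-linked isocitrate dehydrogenase, fell 5.16-fold, to 1.03 ± 0.19 (SD, n = 4) in arrays labelled PMSG, a difference of -2.37 (SE 0.17, limma adjusted p = 7.88e-05). Me1, malic enzyme, fell 3.17-fold (-1.66, limma adjusted p = 7.64e-05), and Acss2, which makes acetyl-CoA from acetate, 2.97-fold (-1.57, limma adjusted p = 0.000253). Slc25a1, the mitochondrial citrate carrier, was also among those that fell, and Pc, pyruvate carboxylase, did not pass.

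Partners of the carboxylase and synthase split. Of 14 genes 4 fell, 2 rose and 8 did not pass, with a median difference of -0.05. The share that did not pass was 57.1%, against 65.5% of all tested genes. Olah, the thioesterase that ends chain growth early, rose 4.04-fold (2.01, SE 0.16, limma adjusted p = 0.000119), and Acacb, the mitochondrial carboxylase, rose 1.53-fold from a dim level (0.61, limma adjusted p = 0.0104); the call of Acacb was lost under quantile normalization and median centring. Prkag2, a regulatory subunit of the AMP-activated kinase that inhibits the carboxylases, fell 2.35-fold (-1.23, limma adjusted p = 0.000492). Mlycd, which degrades malonyl-CoA, fell by 0.80 (limma adjusted p = 0.000692) and Mecr, the reductase of mitochondrial fatty acid synthesis, by 0.64 (limma adjusted p = 0.00748).

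Among 19 genes of transcriptional control, 7 fell, 3 rose and 9 did not pass, with a median of 0.11, near that of all genes. Insig1, Scap and Srebf2, of the machinery that senses sterols, and Mlx were among the falls, and the other 3 were Usf2, Nfyb and Nfyc. Insig1, which holds the SREBP complex in the endoplasmic reticulum and is itself an SREBP target, fell 4.57-fold (-2.19, SE 0.20, limma adjusted p = 0.000208). Scap, the escort of SREBP, fell by 0.81 (limma adjusted p = 0.000698), and Srebf2, the gene of SREBP-2, by 0.80 (limma adjusted p = 0.000520). Insig2 differed by 0.11 (limma adjusted p = 0.415), and by -0.06 under median centring. Mlx, the partner of the carbohydrate-responsive factor ChREBP, fell by 0.81 (limma adjusted p = 0.000407), whereas Mlxipl, the ChREBP gene, differed by 0.38 (limma adjusted p = 0.339). Mlxipl passed without PMSG array 4 (0.68, limma adjusted p = 0.0123) and with array weights (0.59, limma adjusted p = 0.0456), and differed by 0.23 without PMSG array 1 and 0.21 without PMSG array 3.

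The 3 that rose in that list were small changes. Nr1h3, the liver X receptor alpha gene, differed by 0.64 (limma adjusted p = 0.0451), its partner Rxra by 0.62 from a dim level (limma adjusted p = 0.0185), and Sp1, which binds GC boxes, by 0.34 (limma adjusted p = 0.0400). The call of Nr1h3 was lost without PMSG array 1, 2 or 3 or control array 1, 2 or 4, that of Sp1 without PMSG array 1 or 2 or any 1 control array, and that of Rxra without PMSG array 1. Each call was also lost under other settings, that of Rxra under quantile normalization among them. Over the 20 settings the limma adjusted p-values of Nr1h3, Sp1 and Rxra reached 0.107, 0.492 and 0.0745. The count of 10 called genes was 6 without PMSG array 1, control array 1 or control array 2.

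Other enzymes of elongation and desaturation changed in both directions. Of 7 elongation genes tested 3 fell and 2 rose, with a median of -0.37. Hacd3, a dehydratase of the elongation cycle, fell by 0.84 (limma adjusted p = 0.0165), Hsd17b12, its ketoacyl reductase, by 0.78 (limma adjusted p = 0.00191), and Elovl1, the elongase of very long saturated chains, by 0.50 (limma adjusted p = 0.00305). Hacd4 rose by 0.71 (limma adjusted p = 0.00131). Elovl2, which extends the products of Elovl5, rose by 0.97 with overlapping labels (limma adjusted p = 0.0197), a call lost under 9 of 20 settings. These were without PMSG array 1 or 2 or control array 1 or 4, the replicate block, the adipocyte covariate, quantile normalization and median centring (limma adjusted p from 0.0506 to 0.0704), and the mean of all its probes (0.49, limma adjusted p = 0.258). Elovl3, Elovl4 and Elovl7 were too dim to be tested.

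Of 11 other desaturation genes 5 fell, 2 were higher and 4 did not pass, with a median of -0.33, also with Cyb5r2 at its bound. Of the cytochrome b5 and reductase genes in this list, Cyb5b, the outer mitochondrial membrane form, fell by 0.89 (limma adjusted p = 0.000500) and the reductase Cyb5r1 by 0.99 (limma adjusted p = 0.00961). Cyb5a, the microsomal cytochrome b5 that serves the desaturases, differed by -0.28 (limma adjusted p = 0.0871), and the reductases Cyb5r3 by 0.45 (limma adjusted p = 0.0519) and Cyb5r4 by 0.11 (limma adjusted p = 0.523), none past the threshold. Cyb5r2, another reductase, was well above background on 0 of 4 control arrays and on 4 of 4 PMSG arrays, and was at least 1.35-fold higher in the latter. It entered the test only through the PMSG arrays, so its place among the 2 higher genes is no support for a rise. This bound sets the PMSG mean against, on each control array, the higher of the probe's own value and the dimmest signal well above background. Scd4, a further stearoyl-CoA desaturase, fell by 0.76 (limma adjusted p = 0.0327), a call lost without PMSG array 2 or any 1 control array (up to 0.0739). Degs2, a ceramide desaturase, differed by 0.79 with overlapping labels (limma adjusted p = 0.0397), and its call was lost without PMSG array 1, 3 or 4 or control array 1, 2 or 4 (limma adjusted p up to 0.101 over the 20 settings). The count of 7 called genes was 4 without control array 1, 2 or 4.

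Downstream, where fatty acids are activated and esterified, 7 of 24 genes fell, 1 rose and 16 did not pass, with a median of -0.32. The share that did not pass, 66.7%, was close to the 65.5% of all tested genes. Lpcat3, which puts arachidonate into phospholipids, fell 3.62-fold (-1.86, SE 0.14, limma adjusted p = 9.75e-05). Acsl4, the acyl-CoA synthetase that prefers arachidonate, fell 2.64-fold (-1.40, limma adjusted p = 0.000188), and Lpin3, a phosphatidate phosphatase, 2.18-fold (-1.12, limma adjusted p = 0.000285). Dgat2, the last step of triglyceride synthesis, rose 3.29-fold with overlapping labels (1.72, SE 0.50, limma adjusted p = 0.0291). Its control arrays spread widely, -0.41 ± 1.04 (SD, n = 4), and its call was lost without PMSG array 1, 2 or 3 or control array 1, 2 or 4 (up to 0.0739).

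**Figure D5:**
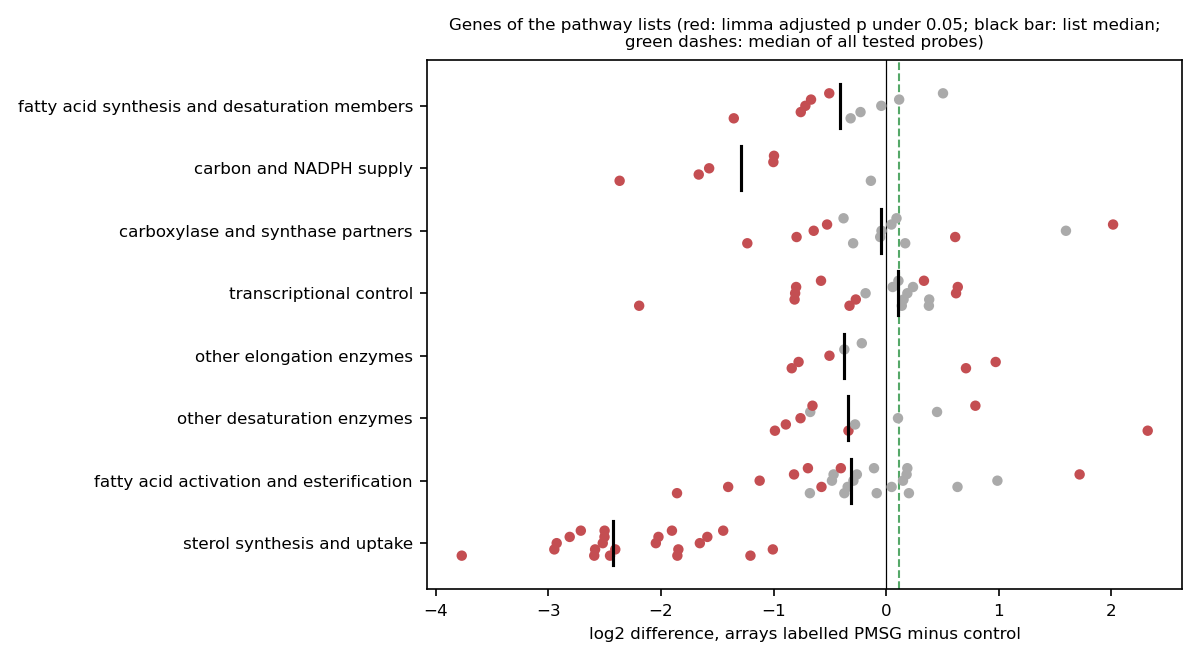
Each point is a gene of the named list, placed by its log2 difference (arrays labelled PMSG minus control), red where the limma adjusted p is under 0.05 and grey otherwise. Black bars are list medians, from -2.43 for sterol synthesis and uptake and -1.29 for carbon and NADPH supply to 0.11 for transcriptional control, and the green dashed line is the median of all tested probes.

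In sterol synthesis and uptake, the branch under SREBP-2, all 22 genes fell, with a median difference of -2.43 against -0.41 for the 10 fatty acid genes. Of all tested genes 16.5% fell, and their median difference was 0.12. This list too was chosen with earlier results of these data known. The smallest fall in the sterol list was 1.01 on the log2 scale, and of the fatty acid genes Fads1 alone differed by more.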

How the data were processed

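RNA of 4 samples labelled control and 4 labelled PMSG was measured on 1-colour arrays, with groups taken from the sample titles. The authors deposited scanner files of spot intensity, made by Agilent Feature Extraction version 11.5.1.1 per the file headers, which place probes on rn4. They also deposited a log2 table, used as an alternative. Set against the scanner files, its columns held the log2 signal scaled to the 75th percentile, uncentred. Columns not used numbered 0. Control and outlier spots were left out, log2 processed signals were averaged over the spots of a probe, 17 probes lacking usable spots were dropped, and each array's 75th percentile was subtracted. Probes well above background (at least 0.5 of their spots) on at least 4 of 8 arrays were tested with limma (version 3.58.1, R 4.3.3; lmFit, eBayes), without covariates and with Benjamini-Hochberg adjustment. The procedure was tested on simulated data with 200 shifted probes, fewer than were called here. It recovered 56% of shifts of 1 log2 unit and 84% of those of 2. Of its calls 7.28% were false. A gene with several probes was read from the brightest. The number of arrays limits the precision.

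The members and lists were chosen with earlier results of these data known. The genes named are the 10 members, up to 3 in each direction of each pathway list with the largest difference past the threshold, Srebf2, Scap, Insig1, Insig2 and Mlxipl, and Adipoq and Plin1. Some listed genes are counted but not reported here by name. Others (Slc25a1, Pc, Usf2, Nfyb, Nfyc, Cyb5a, Cyb5r3, Cyb5r4 and the cell markers other than Adipoq and Plin1) were named after their values were seen. Pgd, Hacd2, Scd3, Pnpla3, Cyp19a1 and Ovgp1 were not analysed here. Permutation tests and motif searches used Python 3.11.15 with scipy 1.17.1. Alternatives were quantile normalization, median centring, normexp, the authors' table, other filters on dim probes, array weights, slide row or replicate number as a block, an intensity trend, the mean over a gene's probes, each array left out and, added after seeing the data, the adipocyte level as a covariate.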

Additional observations from a re-analysis of the deposited data

Results flagged for a closer look

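In groups of 4 arrays, an array was taken as far from the others where its gap to the nearest of them was a large share of the group's whole range, by Dixon's 95% criterion. Of 100 such groups 7 met this, where chance gives about 1 in 20, and 4 of the 7 were PMSG array 4. For Fasn, that array read 3.12 against 4.01 to 4.10 on the other PMSG arrays, a gap of 0.909 of the range. For Scd1 it read 2.70 against 3.94 to 4.18 (0.838 of the range), and for Elovl5 -3.04 against -1.77 to -1.57 (0.866). The mean level of the 10 genes was 0.578 on it against 1.21 to 1.28 (0.898). This mean contains Fasn, Scd1 and Elovl5, so it is no separate observation, and the groups examined are not independent.

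The other 3 concerned single genes of the pathway lists. Insig1 read 2.63 on control array 2 against 2.99 to 3.02 on the other control arrays (0.946 of the range). Acacb read -5.41 on control array 4 against -5.18 to -5.15 (0.898). Degs2 read -2.14 on PMSG array 2 against -1.34 to -1.28 (0.936).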

How the results depend on the processing

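Every alternative kept at least 4 of the 10 genes past the threshold, all of them lower: 5 with the replicate number as a block, 6 under median centring, normexp and the intensity trend, 4 with the mean over a gene's probes, and 4 to 5 with 1 array left out. Whether the replicate numbers pair the arrays was not settled. Same-numbered arrays' deviations from their group means correlated between -0.02 and 0.18, and differently numbered arrays were not compared. The replicate block lowered the called genes of transcriptional control from 10 to 6. Leaving out 1 array gave 6 to 12 for that list, 4 to 6 against 7 for other desaturation enzymes, and 6552 to 11382 called probes against 8658. Without PMSG array 4, 61.3% of called probes were higher. Of the values counted over lists and probes, 172 stayed within 1.5 times and 7 did not; no called difference turned its sign. The cause of these shifts was not tested. The dim signals of Acaca, Acacb, Rxra and Cyb5r2 limit what can be said of the size of their differences.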
